A study of Homo sapiens with 6 samples.

Results

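Chemokines are small secreted proteins that draw leukocytes towards injured tissue, and the 10 listed here are those usually measured in stressed kidney tubule cells: CCL2, CCL20, CXCL1, CXCL2, CXCL3, CXCL5, CXCL6, CXCL8, CXCL10 and CX3CL1. Their rows were found by gene symbol. Of the 10, 9 had a row among the 31369 genes of the count table, CXCL10 was not analysed here, and 7 had enough counts to be tested among 15878 genes. The samples were RNA-seq libraries of HK-2 cells, a line of human proximal tubule epithelium immortalised with papillomavirus oncogenes. The control group (NC, n = 3) carried the genotype label WT and the overexpression group (OE, n = 3) the label PPM1K overexpress, and all 6 samples were labelled Day 10. PPM1K is a mitochondrial phosphatase that activates the branched-chain keto acid dehydrogenase. It was delivered as a plasmid with a Lipofectamine reagent, and what the NC cells received is not given in the sources used here. Every sample also carried "Chronic kidney disease" as its treatment entry.

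The labels disagree among themselves. The sample titles name short hairpins (shControl and shPPM1K) where the genotype field names overexpression, and the cell line entry carries a different number after "HK" in each sample, while the cell type entry is HK-2 throughout. PPM1K counts were 37, 19 and 53 in the NC samples and 3294, 3531 and 2919 in the OE samples (values are always given in the order of replicates 1 to 3), so its level went with the genotype field, which was used for the groups (log2 fold change 6.39, SE 0.13, adjusted p = 1.1e-18, edgeR quasi-likelihood test). Library totals ran from 34635770 to 39850802 counts. NC replicate 2 stood apart, with 26478 genes counted at least once, 3551 of them in that library alone, against 22094 to 22913 and 449 to 766 in the other 5. The sources do not say whether the replicates were separate cultures, so the p-values measure only the spread between these samples. Markers of leukocytes, the cells that chemokines act on, were all under 1 CPM (counts scaled to the library total) in every sample (10 of 10). NKG7 and TYROBP were among those at 0. The summed level of the leukocyte markers was 1.38 to 2.06 CPM in NC and 0.963 to 1.46 CPM in OE. The 5 epithelial markers summed to 3390 to 3750 CPM in NC and 2660 to 2910 in OE, with 4 of 5 lower in OE. Of 13 proximal tubule markers 8 were under 1 CPM in every sample and SLC22A6 was at 0 (summed 396 to 418 CPM in NC and 372 to 404 in OE, 1 higher and 3 lower). Fibroblast markers summed to 17.7 to 19.0 CPM in NC and 7.57 to 8.15 in OE, with both tested members, LUM and COL1A1, lower, and endothelial markers to 5.09 to 6.48 and 7.09 to 8.09, with VWF and PECAM1 of 3 tested higher. These endothelial calls went from 2 to 0 with DESeq2, with both limma fits and without NC replicate 1, NC replicate 2, OE replicate 2 or OE replicate 3, and to 1 without OE replicate 1. The part of these markers in the results was not tested.

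The chemokines differ in the receptors they bind. CXCL1, CXCL2, CXCL3, CXCL5, CXCL6 and CXCL8 bind CXCR2 on neutrophils, and CXCL6 and CXCL8 also bind CXCR1. CCL2 draws monocytes through CCR2, and CCL20 draws lymphocytes and dendritic cells through CCR6. CXCL10 is an interferon-induced ligand of CXCR3. CX3CL1 is made as a membrane-bound protein on a mucin stalk, which holds cells that carry CX3CR1 until proteases release it. In epithelium most of these genes are switched on by NF-kB downstream of tumour necrosis factor, interleukin-1 and pattern receptors, together with AP-1 and C/EBP factors, and several of the mRNAs are short-lived because of AU-rich stretches in the 3′ UTR.

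The 6 CXCR2 ligands lie together on chromosome 4, and their promoters are shown because the genes share 1 short NF-kB motif but differed in level and in direction between NC and OE. The 140 bases before the RefSeq start (GRCh38.p14) are read 5′ to 3′ on each gene's own strand. For CXCL8, CXCL6, CXCL3 and CXCL2 this start lies inside the gene span given below, which is from GENCODE. Those windows therefore overlap the span, and distances are counted from the RefSeq start. The promoters were chosen after the values were seen. Capitals mark GGANNTTCC with any overlapping match of the kappa B consensus decamer, TGANTCA (the AP-1 motif) and TATAAA (the TATA box).
CXCL8: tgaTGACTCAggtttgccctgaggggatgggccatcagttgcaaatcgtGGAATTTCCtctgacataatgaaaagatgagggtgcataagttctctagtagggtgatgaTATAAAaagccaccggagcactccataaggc
CXCL6: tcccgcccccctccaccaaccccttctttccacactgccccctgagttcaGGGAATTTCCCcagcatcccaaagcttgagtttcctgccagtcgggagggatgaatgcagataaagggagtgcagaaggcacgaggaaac
CXCL1: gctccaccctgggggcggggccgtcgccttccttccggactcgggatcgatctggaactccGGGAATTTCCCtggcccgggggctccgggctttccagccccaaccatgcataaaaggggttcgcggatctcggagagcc
CXCL5: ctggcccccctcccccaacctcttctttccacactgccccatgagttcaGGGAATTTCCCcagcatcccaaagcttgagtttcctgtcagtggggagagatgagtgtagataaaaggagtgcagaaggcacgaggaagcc
CXCL3: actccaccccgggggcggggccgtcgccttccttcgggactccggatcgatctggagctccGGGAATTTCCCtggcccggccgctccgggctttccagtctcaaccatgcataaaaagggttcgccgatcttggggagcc
CXCL2: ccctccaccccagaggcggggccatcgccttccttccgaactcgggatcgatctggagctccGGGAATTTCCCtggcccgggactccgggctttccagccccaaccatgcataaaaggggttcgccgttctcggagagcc
The windows are chr4:73740429-73740568 (+), chr4:73836538-73836677 (+), chr4:73869253-73869392 (+), chr4:73998678-73998817 (−), chr4:74038690-74038829 (−) and chr4:74099196-74099335 (−).

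Each of these 6 promoters held GGANNTTCC, in every case as GGAATTTCC, starting 77 or 78 bases before the start in CXCL1, CXCL2 and CXCL3, 90 in CXCL5, 89 in CXCL6 and 91 in CXCL8. Among 35116 RefSeq promoters, 3.84% held GGANNTTCC in the 250 bases before the start (both strands searched; these letters overlap the decamer). The decamer itself was in 5.21% of promoters, including those of CXCL1, CXCL2, CXCL3, CXCL5, CXCL6 and CCL20. Over the 140 bases shown, with the shared site included, the 6 promoters fell into families. Of the bases, 88.0% to 91.5% were identical among CXCL1, CXCL2 and CXCL3, 90.1% between CXCL5 and CXCL6, and 44.3% to 55.3% in the other pairs. TGANTCA was in 6.57% of all promoters and, of the chemokines with a row and a promoter entry, only in CXCL8, 137 bases before the start. TTGCNNAA, the C/EBP motif, was in 9.05% and only in CXCL2, 188 bases before the start. TATAAA was in 10.7%, in CXCL8 and CCL20. The interferon element GAAANNGAAA (3.02% of all) and TGATGNAA, read by ATF4 with C/EBP (3.14%), were in none of these promoters. An entry was matched for 8 of the 10 chemokines, without CCL2 and CX3CL1. A match of letters is a description and not a binding site.

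Per length of transcript, CXCL5, CXCL8 and CXCL2 were far above the other chemokines in these cells. FPKM, the fragments per kilobase of transcript scaled to library size that the authors deposited, was 54.6 ± 1.99 (SD, n = 3) for CXCL5 in NC, 51.2 ± 2.02 for CXCL8 and 42.2 ± 1.39 for CXCL2. These levels were above those of 95.5%, 95.2% and 94.2% of the tested genes. CX3CL1, CXCL3 and CCL2 lay in the middle of the range, at 3.71 ± 0.389, 3.11 ± 0.0404 and 2.93 ± 0.484 FPKM. CCL20 and CXCL1 were low, at 0.363 ± 0.208 and 0.143 ± 0.0651 FPKM, and CXCL6 was at 0. The order was the same in OE. In NC the values of CXCL3 and CCL2, and of CCL20 and CXCL1, overlapped between samples, so their order is not set beyond the spread, and in OE no neighbours overlapped. In FPKM CXCL5 lay above CXCL8 by a small margin. The ratio was 1.07 ± 0.0525 within NC samples and 1.09 ± 0.0344 within OE samples. The gene lengths behind FPKM are not stated in the sources used here. The order of genes close in level, including CX3CL1, CXCL3 and CCL2, depends on them. The NC mean was 144 CPM for CXCL5 and 124 CPM for CXCL8, and their main GENCODE transcripts have 2436 and 1642 bases. Scaling by those lengths would put CXCL8 above CXCL5.

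**Figure D1:**
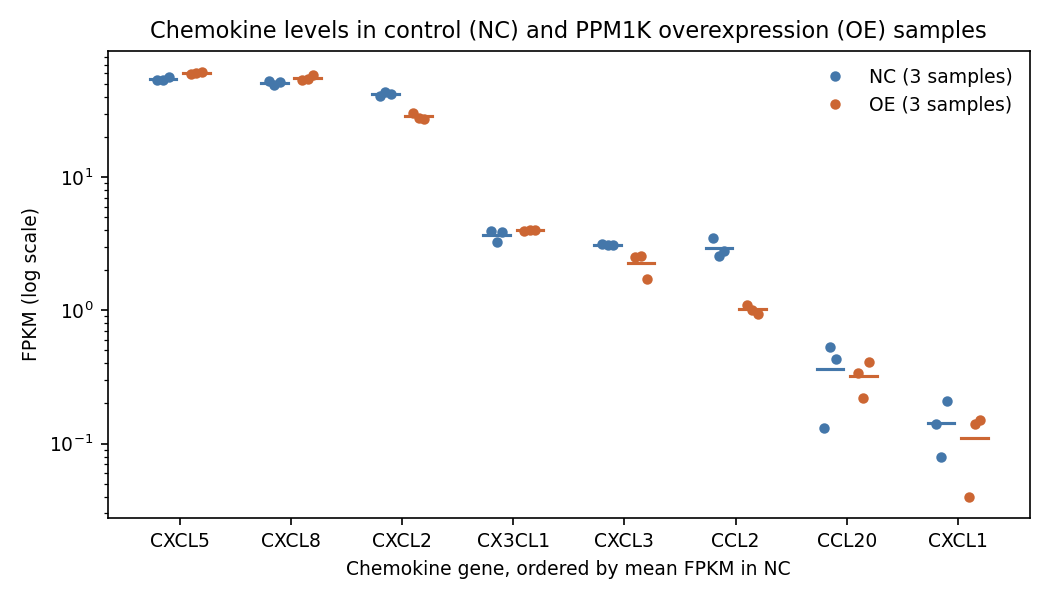
FPKM on a log scale of 8 chemokine genes in each NC (blue) and OE (orange) sample, with a bar at each group's mean. CCL2 and CXCL2 separate between the groups (CCL2 2.54 to 3.47 against 0.94 to 1.1 FPKM), CXCL5 and CXCL8 lie slightly higher in OE, and CCL20 and CXCL1 overlap.

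In the sequencing counts CCL2 fell with PPM1K overexpression to 0.346 of its control level. CXCL2 and CXCL3 fell by smaller amounts, and CXCL5 rose slightly. CCL2 was the only chemokine past the study's threshold for a differentially expressed gene (DEG, adjusted p under 0.05 and fold above 2 or below 0.5). At this threshold 1 of 7 tested chemokines was lower and 0 higher, beside 3.79% of all tested genes lower and 1.73% higher. With the adjusted p alone 3 of 7 were lower and 1 higher, beside 23.7% and 24.9% of all tested genes, and 3 did not pass. In 3 of 7 the CPM of the groups did not overlap with OE lower, and in 3 of 7 with OE higher, where 27.1% and 28.2% of all tested genes had such a separation. The median log2 fold change of the 7 was -0.21, and that of all tested genes was -0.0032. In bulk samples a fall in the number of cells that make a transcript and a fall in each cell cannot be told apart.

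**Figure D2:**
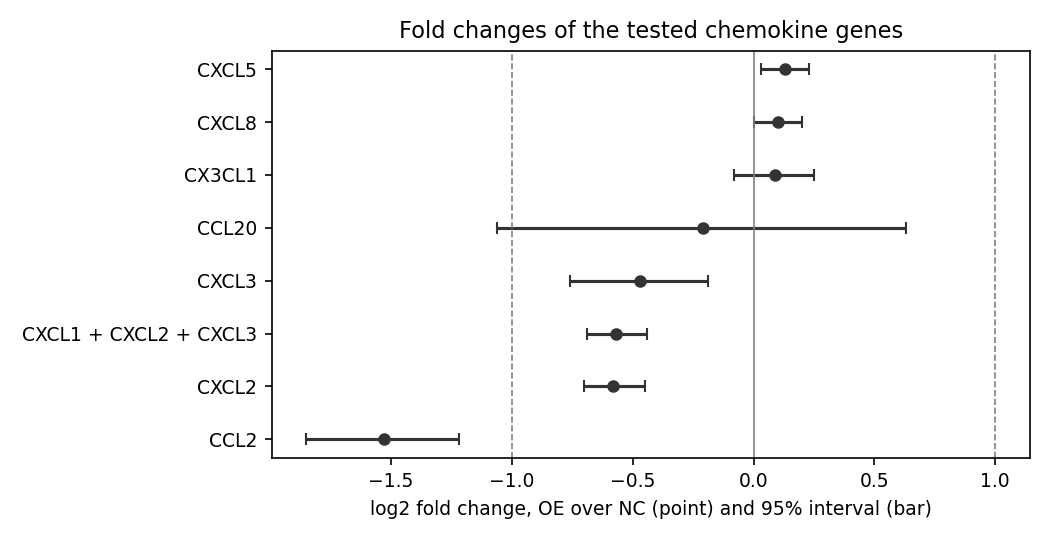
log2 fold change of OE over NC for the 7 tested chemokines and for the summed counts of CXCL1, CXCL2 and CXCL3, with 95% intervals as bars and dashed lines at fold changes of 2 and 0.5. Only CCL2 (-1.53) has its whole interval beyond a dashed line, and the intervals of CXCL8, CX3CL1 and CCL20 include 0.

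CCL2 (ENSG00000108691.9, chr17:34255274-34257208, plus strand, 3 exons, GRCh38) is the main attractant of monocytes to injured tubules. It had 257, 195 and 214 counts in NC and 88, 85 and 72 in OE. The lowest NC sample was thus more than 2 times the highest OE sample. Its log2 fold change was -1.53 (SE 0.15, 95% interval -1.85 to -1.22, edgeR adjusted p = 4.1e-08), a fold of 0.346. In level it went from 2.93 ± 0.484 to 1.02 ± 0.0802 FPKM (n = 3 each), from above 55.6% of tested genes to above 34.2%. Against a null of a 2-fold change (glmTreat) the adjusted p was 0.019. The study's own RT-PCR, run on the same RNA samples, went the other way. There CCL2 was significantly higher in OE, which the paper calls inconsistent with its sequencing.

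The CXCR2 ligands did not move as 1 group. CXCL2 (ENSG00000081041.9, chr4:74097040-74099196, minus strand), an early neutrophil attractant, had 2134, 2363 and 2287 counts in NC and 1708, 1653 and 1476 in OE. All OE samples were below all NC samples, and the log2 fold change was -0.58 (SE 0.06, 95% interval -0.70 to -0.45, edgeR adjusted p = 1.1e-07), a fold of 0.67. Of all the chemokines CXCL2 had the largest change in FPKM units, from 42.2 ± 1.39 to 28.6 ± 1.57. CXCL3 (ENSG00000163734.4, chr4:74036589-74038807, minus strand), a close relative with the same receptor, had 261, 264 and 268 counts in NC and 225, 238 and 146 in OE. The NC samples were nearly equal, and OE replicate 3 lay well below the other 2 OE samples. The log2 fold change of CXCL3 was -0.47 (SE 0.14, 95% interval -0.76 to -0.19, edgeR adjusted p = 0.0063), and it was -0.31 (adjusted p = 0.037) without OE replicate 3.

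CXCL5 (ENSG00000163735.7, chr4:73995642-73998677, minus strand), a neutrophil attractant made mainly by epithelium, had 4837, 5068 and 5395 counts in NC and 5799, 6232 and 5757 in OE. Every OE sample was above every NC sample, but by little: 54.6 ± 1.99 against 60.5 ± 1.14 FPKM. The log2 fold change was 0.13 (SE 0.05, 95% interval 0.03 to 0.23, edgeR adjusted p = 0.036), a fold of 1.09, and it passed the test in 7 of 15 alternative analyses, with values of 0.09 to 0.16. A lncRNA gene (ENSG00000287037) overlaps CXCL5 on the other strand. It had 36 counts in all NC and 42 in all OE samples.

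CXCL8 (ENSG00000169429.11, chr4:73740519-73743716, plus strand), or interleukin-8, had 4413, 4240 and 4516 counts in NC and 4829, 5145 and 5041 in OE. The OE samples were all higher, with 51.2 ± 2.02 against 55.6 ± 2.68 FPKM. CXCL8 did not pass the test at a log2 fold change of 0.10 (SE 0.05, edgeR adjusted p = 0.1). The 95% interval of its fold ran from 0.997 to 1.15 and did not hold the fold of CXCL2. CXCL1 (ENSG00000163739.5, chr4:73869393-73871308, plus strand), the prototype of the family, had 7, 4 and 11 counts in NC and 2, 8 and 8 in OE and was too low to be tested. A difference in CXCL1 was not detectable at this depth. CXCL6 (ENSG00000124875.10, chr4:73836640-73849064, plus strand) had 0 counts in NC and 1 count in OE replicate 2, under the 3 counts that a count of 0 allows in a library.

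Because CXCL1, CXCL2 and CXCL3 are close copies, reads could have been split between them. Their main transcripts were 83.7% identical between CXCL1 and CXCL2, 73.0% between CXCL2 and CXCL3 and 69.2% between CXCL1 and CXCL3, and no stretch of 100 bases was the same in any pair of the 6 CXCR2 ligands. The summed counts of the 3 genes were 2402, 2631 and 2566 in NC and 1935, 1899 and 1630 in OE. Tested as 1 gene, the sum fell by 0.57 on the log2 scale (-0.57, SE 0.06, 95% interval -0.69 to -0.44, edgeR adjusted p = 1.4e-07), close to CXCL2 alone. CXCL2 held most of these counts (6784 in NC, beside 793 for CXCL3 and 22 for CXCL1), so the sum had to lie near it. The authors counted only uniquely mapped reads, so the sum cannot bring back reads shared by the copies.

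The cluster spans 359.0 kb from CXCL8 to CXCL2 and holds 20 annotated genes, of which 11 had a row in the count table. CXCL8 lies at one end, CXCL6 and CXCL1 follow with almost no counts, and CXCL5, CXCL3 and CXCL2 lie at the other end on the minus strand. PPBP, the platelet ligand of CXCR2 inside the cluster, had 0 counts in NC and 1 in OE.

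**Figure D3:**
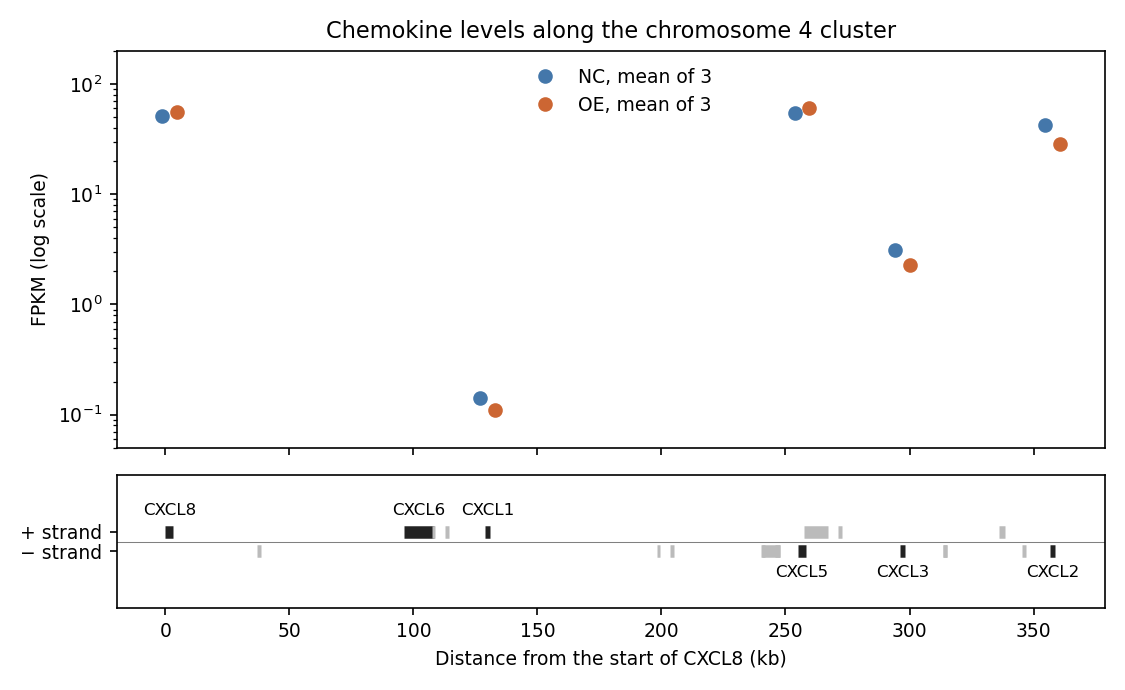
Mean FPKM (log scale, n = 3) of the chemokines at their place in the chromosome 4 cluster, in kb from the start of CXCL8, with the NC and OE points set slightly apart. Below it the chemokines (black) and other annotated genes (grey) are drawn by strand. CXCL6 has no point because it was at 0 FPKM in NC. The high genes CXCL8, CXCL5 and CXCL2 are separated by low ones, and of these 3 only CXCL2 lies lower in OE.

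CX3CL1 (ENSG00000006210.7, chr16:57372477-57385044, plus strand) had 883, 753 and 902 counts in NC and 937, 1006 and 923 in OE. In FPKM the groups overlapped, at 3.97, 3.26 and 3.89 in NC and 3.92, 3.99 and 4.04 in OE, with NC replicate 2 the lowest. In CPM the OE samples were above NC by less than the rounding, at 25.4, 21.4 and 25.1 in NC and 25.4 in each OE sample. The log2 fold change was 0.09 (SE 0.08, 95% interval -0.08 to 0.25, edgeR adjusted p = 0.38), and 0.01 without NC replicate 2. CCL20 (ENSG00000115009.13, chr2:227805739-227817564, plus strand) had 8, 33 and 27 counts in NC and 22, 15 and 25 in OE. Its groups overlapped, and with a log2 fold change of -0.21 (SE 0.41, 95% interval -1.06 to 0.63, edgeR adjusted p = 0.69) the interval takes in a fall by more than 2-fold as well as a rise. The value turned to 0.16 without NC replicate 2.

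Without NC replicate 2, the library that stood apart, CCL2 (-1.61), CXCL2 (-0.54) and CXCL3 (-0.47) still passed the test as lower. CXCL5 kept its log2 fold change of 0.13 but no longer passed (edgeR adjusted p = 0.078), so that 0 chemokines were called higher.

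The summed FPKM of the 9 chemokines changed little while its make-up shifted. The sum was 158 ± 2.7 FPKM in NC and 152 ± 2.28 in OE, with every OE sample lower (exact permutation test, two-sided, p = 0.1, the smallest p that 3 against 3 samples allow). CXCL5, CXCL8 and CXCL2 together held 93.5% ± 0.4 of the sum in NC and 94.9% ± 0.326 in OE. The share of CXCL2 was 25.9%, 28.0% and 26.1% in the NC samples and 20.1%, 18.6% and 17.8% in the OE samples. Against this, CXCL5 went from 34.5% ± 0.793 to 39.7% ± 0.487 and CXCL8 from 32.3% ± 1.05 to 36.5% ± 1.23. The shares add up to the whole, so a fall in 1 raises the others. Their sizes also rest on the gene lengths behind FPKM. The ratio of CXCL2 to CXCL5 within a sample, chosen after its values were seen, was 0.773 ± 0.037 in NC and 0.474 ± 0.0347 in OE.

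**Figure D4:**
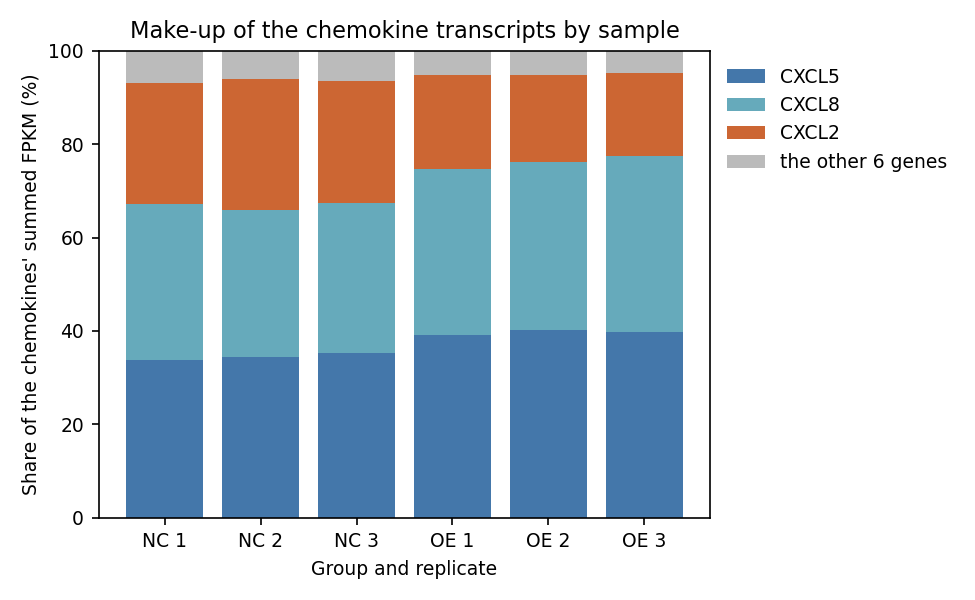
Share (%) of CXCL5, CXCL8, CXCL2 and the remaining chemokines pooled in the summed FPKM of the 9 genes, as a stacked bar for each NC and OE sample. The CXCL2 band is 25.9% to 28.0% in NC and 17.8% to 20.1% in OE, while the CXCL5 and CXCL8 bands are wider in OE.

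The 3′ UTRs of the chemokines differ in the AU-rich pentamer ATTTA, which marks short-lived mRNAs (counts of letters on 1 strand, chosen after the values were seen). CXCL2 had 10 in its UTR, more than in 99.9% of UTRs of like length (19550 UTRs in all), CXCL3 had 7 (99.1%), CXCL8 9 (97.2%), CXCL1 6 (96.0%) and CXCL5 11 (95.2%). CCL20 had 3 (89.1%) and CXCL6 had 6 (89.1%). CCL2, which had the largest fold change, had 1 (58.3%), and CX3CL1 had 2 (23.4%). The longer element TTATTTATT occurred 5 times in CXCL2, 3 times in CXCL1, once each in CXCL3, CXCL8 and CX3CL1, and in none of CXCL5, CXCL6, CCL2 and CCL20. Genes that were lower in OE were thus found both with many pentamers and with few.

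Of 11 listed mRNA decay and stability factors, not all of which bind such elements, 4 were higher in OE and 3 lower. This stands beside 24.9% and 23.7% of all tested genes (median log2 fold change 0.11). ZFP36 (tristetraprolin), which brings AU-rich mRNAs to decay and is itself an early response gene, fell by 1.46 on the log2 scale (SE 0.07, adjusted p = 1.3e-12), from 48.8 ± 1.14 to 17.8 ± 1.74 CPM. ZC3H12A (regnase-1), an endonuclease of inflammatory mRNAs, fell by 0.59 (adjusted p = 4.4e-06), and TIA1, a translational repressor, by 0.53 (adjusted p = 4.3e-05). KHSRP, another decay factor, rose by 0.36 (adjusted p = 2.4e-06) and HNRNPD (AUF1) by 0.28 (adjusted p = 0.00019).

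Genes of the pathways that induce these chemokines changed in both directions, all in the same edgeR fit with adjusted p over all tested genes. Among 8 NF-kB subunits and kinases, 4 were higher and 0 lower, beside 24.9% and 23.7% of all tested genes (median 0.27), and 1 was lower without OE replicate 3. The 4 were NFKB2 (log2 fold change 0.53, adjusted p = 1.6e-08), RELB (0.81, adjusted p = 5.2e-08), NFKB1 (0.41, adjusted p = 1e-05) and the kinase regulator IKBKG (0.43, adjusted p = 0.00022). Of 14 tested NF-kB target and feedback genes, 3 were higher and 7 lower, beside 24.9% and 23.7% of all tested genes (median -0.15). IL6, a cytokine of injured tubules, fell by 1.06 (60.4 ± 2.0 to 29.0 ± 2.45 CPM, adjusted p = 3.4e-11). By the study's RT-PCR on the same RNA samples IL6 was instead significantly higher in OE. CSF2, a growth factor of myeloid cells, fell by 0.92 (adjusted p = 6.9e-09). TRAF1, a receptor adaptor, rose by 1.64 (adjusted p = 4.7e-09), the inhibitor TNFAIP3 (A20) by 0.82 (adjusted p = 8.2e-09) and the inhibitor NFKBIB by 0.66 (adjusted p = 6.1e-08). In the sequencing counts IL6 and CSF2 thus moved as CCL2 and CXCL2 did, while TNFAIP3 went the other way.

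Among the 14 AP-1 and C/EBP factors, 7 were higher and 5 lower, beside 24.9% and 23.7% of all tested genes (median 0.13). The immediate early genes FOS, FOSB and JUNB fell by 1.93, 1.64 and 0.92 on the log2 scale (adjusted p = 1e-14, 7e-14 and 8.8e-12). FOS went from 49.1 ± 0.764 to 12.9 ± 0.886 CPM and FOSB from 125 ± 9.93 to 40.3 ± 3.98. CEBPG and DDIT3 (CHOP), partners of ATF4 and C/EBP proteins, rose by 1.05 and 1.08 (adjusted p = 1.1e-12 and 3.1e-12). Members of the same family thus moved in both directions.

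Of 7 tested interferon regulatory and STAT factors, 1 was higher and 4 lower, beside 24.9% and 23.7% of all tested genes (median -0.16). IRF3, a factor of the innate interferon response, STAT2 and STAT3 fell by 0.33, 0.34 and 0.16 (adjusted p = 0.00051, 0.0011 and 0.044). For STAT3 the groups overlapped in CPM (43.2 ± 2.13 in NC and 38.5 ± 2.6 in OE). The lower count went from 4 to 3 with DESeq2, no filter on low counts, the replicate block and both limma fits. It was also 3 without NC replicate 1, NC replicate 2, OE replicate 1 or OE replicate 2. IRF1 rose by 0.44 (adjusted p = 6.7e-07). Of 16 receptors and adaptors for inducing signals, 3 were higher and 6 lower, beside 24.9% and 23.7% of all tested genes (median -0.01). IL1R1, the signalling receptor of interleukin-1, fell by 1.27 (6.07 ± 0.159 to 2.51 ± 0.108 CPM, adjusted p = 9.2e-08), and TRADD, an adaptor of the tumour necrosis factor receptor, by 0.66 (adjusted p = 0.00041). TNFRSF1B, a receptor of tumour necrosis factor, rose by 1.08 from a low level (0.838 ± 0.201 to 1.78 ± 0.236 CPM, adjusted p = 0.00095). The interferon receptor chains IFNAR2 and IFNAR1 moved apart, at -0.26 and 0.30 (adjusted p = 0.0016 and 0.0017).

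**Figure D5:**
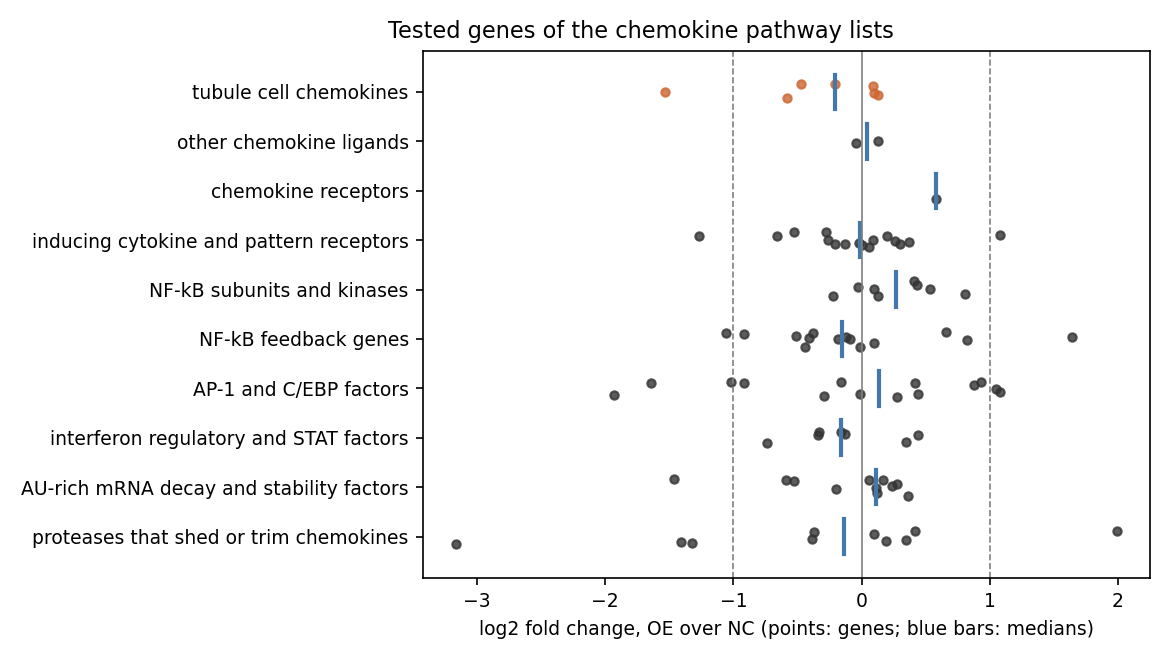
log2 fold change of OE over NC for each tested gene of the chemokines (orange) and the pathway lists (black), with the list medians as blue bars and dashed lines at fold changes of 2 and 0.5. Points are spread vertically for legibility only. The list medians of 2 or more genes lie between -0.21 and 0.27, and most lists hold genes on both sides of 0.

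The proteases that release or trim chemokines were also measured, and of 10 tested 2 were higher and 4 lower (beside 24.9% and 23.7% of all tested genes; median -0.13). The higher count went from 2 to 1 with upper quartile scaling, with both limma fits and without NC replicate 1, NC replicate 3, OE replicate 2 or OE replicate 3. MMP7 (matrilysin), which frees CXCR2 ligands held on the cell surface, fell by 3.16 on the log2 scale (164 ± 8.84 to 18.2 ± 1.27 CPM, adjusted p = 9e-19). MMP1 fell by 1.41 (adjusted p = 4e-10), MMP14 by 0.39 (adjusted p = 5.2e-06) and DPP4, which removes the first residues of several chemokines, by 0.37 (adjusted p = 6.5e-06). MMP9, which can shorten and activate CXCL8, rose by 1.99 from 0.927 ± 0.269 to 3.69 ± 0.518 CPM (adjusted p = 1.1e-07).

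Few other chemokines or receptors were counted. Of 33 other chemokine ligands 12 had a row and 2 were tested, and neither passed: the mucosal ligand CCL28 at -0.04 (SE 0.10, adjusted p = 0.77) and the membrane-anchored CXCL16 at 0.13 (SE 0.18, adjusted p = 0.56). Of 23 chemokine receptors 13 had a row and only CXCR5 was tested, at 0.58 (SE 0.33, adjusted p = 0.15). The ligand count went from 0 to 1 higher with no filter on low counts and with both limma fits, and the receptor count from 0 to 1 higher without NC replicate 3. CXCR2, the receptor of the abundant ligands, had 1 count in all 6 libraries.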

How the data were processed

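RNA-seq of HK-2 cells was analysed in 3 NC and 3 OE samples. Poly(A) libraries from a stranded kit were cleaned with FASTX-Toolkit and aligned with HISAT2 (version, annotation and strand setting of the counting not given in the sources used here). The submitters' processing notes list the builds GRCh38 and mm10 without their roles. The authors deposited a raw read count and an FPKM value (fragments per kilobase, scaled to mapped reads) per gene and sample. Of the gene IDs, 99.8% were found in GENCODE 44 (GRCh38).

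Counts were tested with edgeR 4.0.16 (R 4.3.3): TMM, filterByExpr and the quasi-likelihood test, OE against NC, with Benjamini-Hochberg adjustment over 15878 genes and a threshold of 0.05. A DEG also had a fold above 2 or below 0.5, as in the study, which used DESeq2. FPKM was used for levels between genes, and CPM is the count scaled to the library total after TMM normalization. The exact permutation test was two-sided over samples. Depth was 34635770 to 39850802 counts, and the biological coefficient of variation was 6.299%. Replicates differed beyond sampling noise (mean chi-square 5.13 to 11.8 per gene).

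The chemokines and lists were chosen with earlier results of these data known. Named genes were all chemokines and, per pathway list, up to 5 genes past the test with the smallest adjusted p, except genes that are not reported here. Alternatives were DESeq2 1.42.0, other scalings and filters, glmTreat, limma 3.58.1 on log2(FPKM + 1) and log2(FPKM + 0.1), a replicate block and leaving out each sample. The procedures were tested on simulated data. Promoters came from RefSeq (GRCh38.p14), and transcripts and positions from GENCODE 44.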

Additional observations from a re-analysis of the deposited data

How the results depend on the processing

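CCL2 passed the test in 15 of 15 alternatives (-1.61 to -0.95), and CXCL2 (-0.63 to -0.54) and CXCL3 (-0.57 to -0.31) in 14 of 15, all but the test against a 2-fold change. CXCL8 and CX3CL1 passed in 0 of 15 and CCL20 in 0 of 14. The count of chemokines higher in OE went from 1 (CXCL5) to 0 with upper quartile scaling, with no filter on low counts and with the replicate block, and was 0 to 1 when single samples were left out (0 without NC replicate 1, NC replicate 2, OE replicate 1 or OE replicate 2). The DEG count lower in OE went from 1 to 0 with limma on log2(FPKM + 1), where CCL2 was -0.95, since the pseudocount shrinks low genes. CCL20 ranged from -0.60 to 0.16 when single samples were left out, turning to 0.16 without NC replicate 2 and to 0.01 without OE replicate 2. Same-numbered samples did not deviate together (correlations -0.00319, -0.0663 and -0.0542), so the numbers were not taken as pairs; with the replicate block CCL2 was -1.53, the sum of CXCL1, CXCL2 and CXCL3 -0.57, and CXCL5 0.13 (adjusted p = 0.11). Of 392 alternative list counts, 364 were within 1.5 times the reported one. DEGs over all genes numbered 875, against 186 with glmTreat, 125 with limma on log2(FPKM + 1) and 568 with limma on log2(FPKM + 0.1). Scaling moved the median of all genes to -0.041 at most. Counts under about 10 per library, as for CXCL1 and CXCL6, limit what can be seen, and mRNA says nothing of secreted protein.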

Other observations

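Some ligands and cytokines outside the comparisons were counted a few times only, and they are named after their values were seen. CCL5, an interferon and NF-kB target that draws T cells, had 1, 0 and 0 counts in NC and 5, 8 and 11 in OE, too low for the test. The mucosal chemokine CXCL17 had 0, 3 and 0 counts in NC and 7, 5 and 5 in OE. TNF, the inducer of many chemokines, had 3, 15 and 4 counts in NC and 6, 0 and 11 in OE, with groups that overlapped, and IL1B had 3, 2 and 1 counts in NC and 1, 2 and 2 in OE.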
